A study of Zea mays with 6 samples.

Results

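In seedlings of the maize F1 hybrid B73×Mo17, 636 m6A peaks lay just past the annotated 3′ end of a gene without touching any annotated gene. They were the peaks of m6A-seq replicate 1 that shared 1 bp or more with a replicate 2 peak, overlapped none of the 45578 genes and non-coding RNA entries of the expression files, and had their summit (the position of highest signal) at most 1000 bp downstream of the 3′ end of an entry, read on the strand of that entry. Of the 17371 peaks of replicate 1, 17022 were shared with replicate 2, and 2785 of the shared peaks overlapped no entry. The downstream peaks were therefore 3.74% of the shared peaks and 22.8% of those outside entries. The nearest 3′ end was taken as that of the upstream gene, which gave 628 upstream entries: 619 genes and 9 ENSRNA entries of annotated non-coding RNA.

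All 6 libraries came from aerial tissue of the same hybrid, harvested at an age of 14 days, with no treatment and no parental sample analysed here. With 2 replicates of each, they comprised sequenced input RNA (here mRNA), m6A-seq, in which RNA fragments are pulled down with an antibody against m6A, and polysome profiling, in which RNA from the ribosome-bound fractions of a sucrose gradient is sequenced. The labels give polyadenylated RNA for the input only and the methods name no such selection for polysome RNA, so a difference between these 2 kinds of library holds both the selection of RNA and its ribosome binding, which cannot be told apart. The reads of the hybrid were mapped to the B73 genome (AGPv4.38), so gene ends are those annotated in B73 and sequence present only in Mo17 is not represented. The peaks carry no strand, and the strand used here is that of the upstream gene. The tables of gene names matched none of the 628 upstream identifiers, so their functions and the leaf identity of the tissue were not checked, and the genes are named by identifier.

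The modified base m6A is adenosine carrying a methyl group, written into messenger RNA by a methyltransferase complex, removed by demethylases of the ALKBH family, and bound by reader proteins with a YTH domain. In plants, as in animals, it is known to collect around stop codons and in the 3′ untranslated region, where it has been linked to RNA stability, translation, and the choice of the polyadenylation site. The 3′ end of a transcript is made by cleavage and addition of a poly(A) tail, and 1 gene can use several such sites. An annotated gene end is a single coordinate set by a gene model, so RNA of a gene can extend past it.

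The downstream peaks were concentrated close to the gene end. Their summits lay between 12 and 990 bp past it, with a median of 224.5 bp and quartiles of 144 and 466 bp, and the near edge of the peak left a median gap of 166.5 bp to the gene. The interval from 101 to 200 bp held 214 summits, more than any other interval of 100 bp, and the count fell to 21 from 901 to 1000 bp. Within the first 100 bp only 67 were counted, where a peak must be narrow or off-centre to avoid the gene. A further 127 shared peaks had their summit past the end of the 1 gene they overlapped, at a median of 30 bp, and by the rule these were not counted among the downstream peaks.

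**Figure D1:**
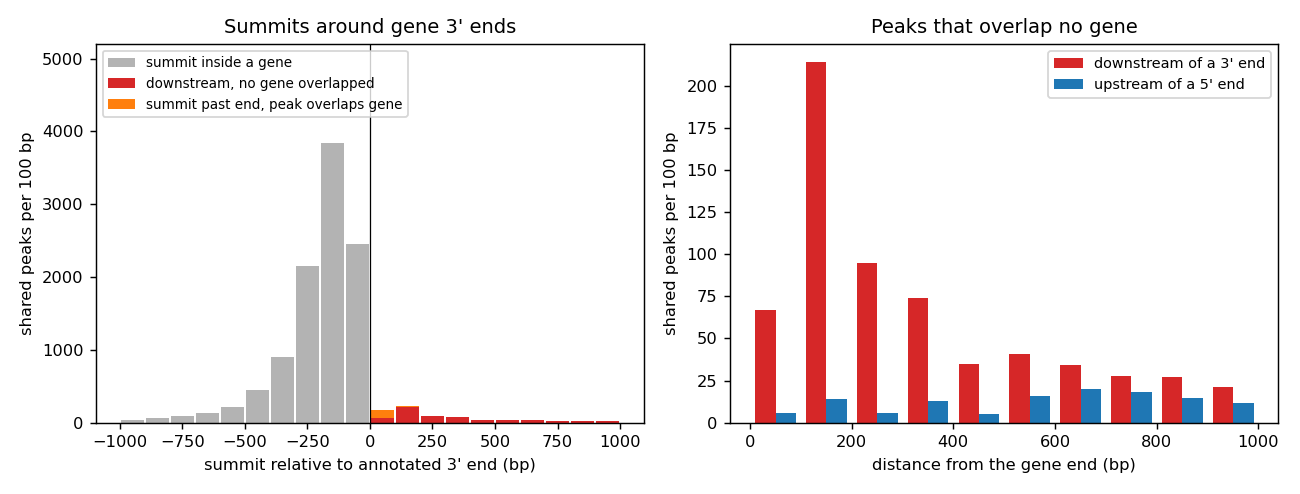
Position of shared m6A peaks in the hybrid. Left, shared peaks per 100 bp (y) against the distance of the summit from the annotated 3′ end in bp (x, negative inside the gene), for summits inside the last 1000 bp of 1 gene (grey), downstream peaks (red), and peaks that overlap the gene with a summit past its end (orange). Right, peaks overlapping no gene, per 100 bp, by distance downstream of a 3′ end (red) or upstream of a 5′ end (blue). The grey bars reach 3844 and the red bars 214, both from 101 to 200 bp on their side of the end, while no blue bar exceeds 20.

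The same window on the other side of genes held far fewer peaks. Within 1000 bp upstream of a 5′ end there were 125 shared peaks outside entries, of which 22 also counted as downstream of another entry, so downstream summits were 5.09 times as many. From 101 to 200 bp the counts were 214 downstream of 3′ ends and 14 upstream of 5′ ends, and from 901 to 1000 bp they were 21 and 12. The excess thus lay mostly near the gene end and was smaller, though still present, at the far edge of the window. With replicate 2 peaks counted in place of replicate 1 peaks the ratio was 5.50. Inside genes, 10347 shared peaks had their summit in the last 1000 bp of exactly 1 entry, with a median distance of 168 bp from the 3′ end. These differences between positions were not tested.

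Assignment to 1 gene was unambiguous for most of the peaks. A single gene end of either kind stood within 1000 bp of the summit for 547 of them. A second 3′ end lay in the window for 68, and in 57 of these the second nearest end belonged to a gene on the opposite strand. In such a convergent pair the peak could belong to either gene, since it has no strand, and the second gene had a peak in its own body in 15 of the 68 cases. The 68 included the peaks named below at Zm00001d020593, Zm00001d029049, Zm00001d049048, and ENSRNA049478292. The upstream entries were on the plus strand in 307 cases and on the minus strand in 321, and each of the 10 chromosomes held between 33 and 97 of the peaks. The next entry downstream began at a median of 12200 bp from the expressed upstream genes and 11816 bp from the other expressed entries. It lay within 1000 bp for 8.81% and 16.5%, respectively. A peak that touches such a neighbour is left out by the rule, whose part in this difference was not tested.

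The summits of the paired peaks lay close together in the replicates. The rule required these peaks to overlap, which by itself limits how far apart their summits can be. The summit of the overlapping replicate 2 peak lay at a median of 227 bp from the gene end, and it was within 20 bp of the replicate 1 summit for 533 of the 636 peaks (83.8%). It fell in the same window of 1000 bp for 634. Only 3 of the peaks overlapped more than 1 replicate 2 peak, and 6 shared their replicate 2 peak with another downstream peak. At the edge of the window, the last peaks inside were those of Zm00001d031066 (990 bp, fold enrichment 16.0 and 19.6 in the replicates) and Zm00001d013648 (989 bp, 2.99 and 3.91). The first outside were those of Zm00001d005423 (1002 bp, 12.3 and 6.32) and Zm00001d037894 (1002 bp, 2.98 and 4.52).

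Fold enrichment, the MACS2 ratio of pulled-down over input signal at the summit, was taken as the m6A level. Among the downstream peaks it ranged from 1.86 to 21.9 in replicate 1, with a median of 6.74 and quartiles of 4.74 and 9.23. In replicate 2 it ranged from 1.75 to 26.9, with a median of 7.38 and quartiles of 5.03 and 11.1. Replicate 2 was the higher for 405 of the 636 peaks, and the values of 494 (77.7%) were within 1.5-fold of each other. Over the peaks, Spearman's rho between the replicates was 0.764 (n = 636 peaks, which share 2 libraries and their inputs). The median of the mean over both replicates was 7.34.

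Downstream peaks were enriched about as much as peaks inside the last 1000 bp of genes. The medians inside genes were 6.60 in replicate 1 and 7.06 in replicate 2, against 6.74 and 7.38 downstream, a smaller distance than that between the replicates. The 2149 shared peaks outside entries that were not within 1000 bp downstream of a 3′ end had medians of 6.74 and 8.62. Downstream peaks were narrower, with a median width of 101 bp in replicate 1 and 132 bp in replicate 2, against 157 and 183 bp inside genes. The other peaks outside entries were 104 and 160 bp wide. The rule, which drops any peak that touches a gene, removes wide peaks near the end more often than narrow ones, and its part in the difference of width was not tested.

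**Figure D2:**
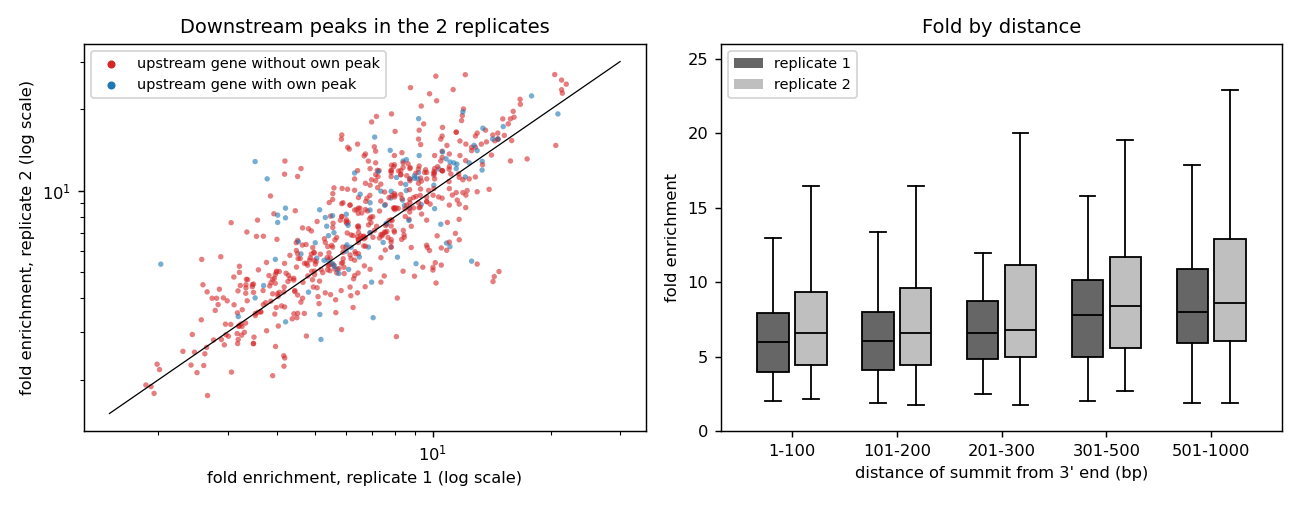
Fold enrichment of the 636 downstream peaks. Left, replicate 2 against replicate 1 on log axes, 1 point per peak, red where the upstream gene has no peak of its own and blue where it has one, with the line of equality. Right, fold enrichment (y) by distance of the summit from the 3′ end in bp (x) in replicate 1 (dark) and replicate 2 (light), with boxes for the quartiles, a line for the median, and whiskers to 1.5 times the box height. Medians are 6.01 and 6.59 within 100 bp and 8.02 and 8.62 beyond 500 bp.

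Fold enrichment and width were higher farther from the gene. From the first 100 bp to the interval beyond 500 bp, replicate 1 went from a median fold of 6.01 to 8.02 and replicate 2 from 6.59 to 8.62. Median width went from 78 to 126 bp in the former and from 109 to 162 bp in the latter. The rule drops any peak that touches the gene, so wide peaks are kept less often near its end. The rise of width with distance cannot be told apart from this selection. Across the peaks, Spearman's rho between distance and fold was 0.270 in replicate 1 and 0.242 in replicate 2. The abundance of the upstream gene did not rise or fall steadily with distance, but it was lowest in the farthest intervals. Median mRNA FPKM (fragment abundance scaled by transcript length and library size) was 3.76 within the first 100 bp. It was 7.02 in the interval from 101 to 200 bp. Between there and 500 bp it was 3.89 and then 2.69 in successive intervals, and beyond 500 bp it was 3.28. The intervals with the lowest abundance, at 2.69 and 3.28, also had the highest median fold in both replicates. The part of abundance in the trend of fold was not tested.

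Fold enrichment was lower where the upstream gene was abundant. For upstream genes with a mean mRNA FPKM from 1 to 2, the median fold of the downstream peak was 8.74 in replicate 1 and 10.6 in replicate 2. At 50 FPKM or more it was 3.19 and 2.99. Over the 485 peaks whose upstream gene reached a mean of 1 FPKM in mRNA, rho between fold and FPKM was −0.583 and −0.606 in the replicates. Over the 9554 peaks in the last 1000 bp of such genes it was −0.522 and −0.609. The input signal stands in the denominator of the fold, so these measures share the input library. At equal abundance the medians of downstream and inside peaks differed in either direction. From 2 to 5 FPKM they were 7.34 downstream and 7.94 inside in replicate 1, and 8.49 and 8.81 in replicate 2. From 10 to 20 FPKM they were 5.17 and 5.19, and 5.57 and 5.13, and at 50 FPKM or more 3.19 and 2.60, and 2.99 and 2.62.

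The upstream genes were mostly expressed. Of the 628, 477 (76.0%) reached a mean of 1 FPKM in mRNA, against 43.6% of all 45578 entries. A peak can be called only where RNA is present, and the part of this selection in the difference was not tested. Entries with a shared peak in the body were mostly expressed too. Of these, 10167 reached 1 FPKM, while 9 upstream and 1154 other entries did not. The FPKM is that of whole aerial tissue, in which fewer cells of a type and less RNA per cell cannot be told apart. The median of these 477 was 6.42 FPKM (6.48 and 6.54 in the replicates), and that of the other 19394 expressed entries 5.47. Another 151 upstream entries were under 1 FPKM, and 64 of them were listed at 0 in both mRNA libraries. The peaks behind these 151 entries had a median fold of 8.40 and 10.9 in the replicates and lay farther from the gene end, at a median of 293 bp against 217 bp for expressed genes. A shared peak overlapped the body of 9 of the 151 (5.96%), near the 4.52% of the other 25556 entries under 1 FPKM.

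Few upstream genes had a second peak inside the gene. A shared peak overlapped the body of 97 of the 628 upstream entries (15.4%). Among expressed entries, 88 of 477 upstream genes had one (18.4%), while the share over all expressed entries was 51.2% and that over those with no downstream peak 52.0% (10079 of 19394). The gap was present at each level of mRNA from 1 FPKM upwards. For an FPKM from 5 to 10 the shares were 22.0% of upstream genes and 61.4% of the others, and at 50 FPKM or more they were 1 of 25 upstream genes and 28.4% of the others. When any peak of replicate 2 was accepted, shared or not, the share was 30.6% of the upstream genes and 59.4% of the others. Conversely, of the 9704 expressed entries with no peak in the body, 389 (4.01%) had a downstream peak, against 0.866% of the 10167 with one. Upstream genes had a downstream peak by the rule, so their share is that of a further peak. The share of the other entries is that of any peak in the body. The share of entries with more than 1 peak was not counted, and these shares were not tested.

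**Figure D3:**
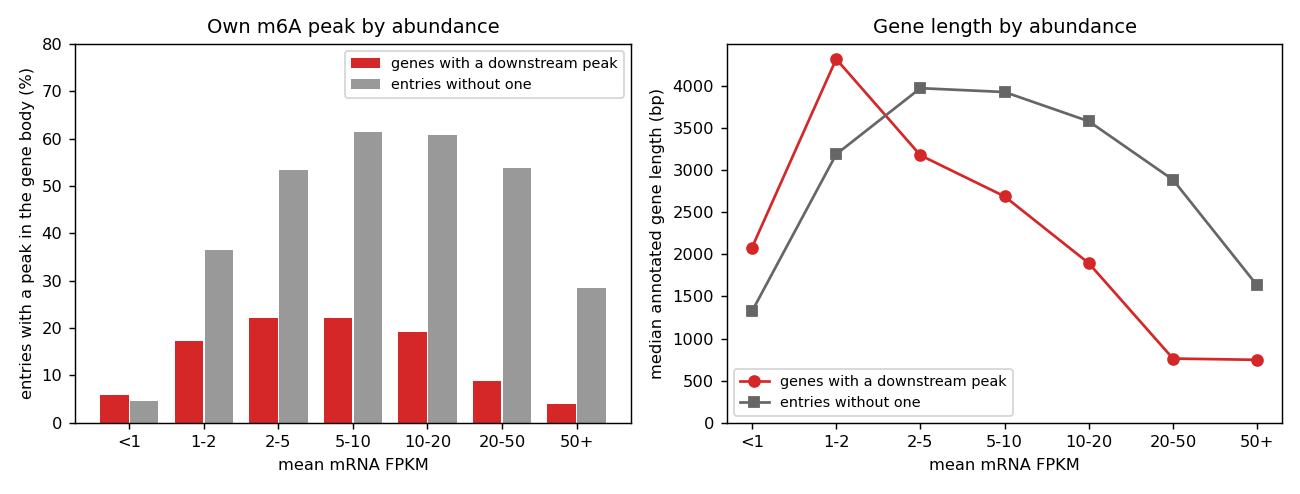
Own peaks and length of upstream genes. Left, percentage of entries with a shared m6A peak in the gene body (y) by mean mRNA FPKM (x), for genes with a downstream peak (red) and entries without one (grey). Right, median annotated gene length in bp (y) over the same classes. Red bars are the lower ones in every class from 1 FPKM upwards, and the red line drops to 747 bp at 50 FPKM or more, where the grey line is at 1629 bp.

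Where a gene had both, neither peak was regularly the stronger. The 97 upstream entries with an own peak had 102 downstream peaks, and the downstream peak exceeded the highest own peak in 57 of 102 cases in replicate 1 and in 61 in replicate 2. It was the higher in both replicates in 42 cases and the lower in both in 26, and in 34 the order differed between the replicates. The median fold was 7.57 downstream and 6.92 in the body in replicate 1, and 8.54 and 8.02 in replicate 2. The summits of the pair were a median of 802 bp apart, and the nearest were 166 bp apart. Downstream peaks of genes with an own peak lay farther out, at a median of 392.5 bp against 207 bp for genes without one. The rule drops a peak that touches the gene, also one joined to a peak inside it. Its part in this difference was not tested.

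The upstream genes without an own peak were shorter than those with one. Their median annotated length was 1902 bp over the 389 that were expressed, against 5793 bp for the 88 with an own peak. Among other expressed entries the medians were 1689 bp without and 5252 bp with a peak in the body. Abundant upstream genes were the shortest, with a median of 762 bp from 20 to 50 FPKM and 747 bp above that, against 2883.5 and 1629 bp for the other entries. Own peaks were rare in short genes of both kinds: up to 500 bp they were found in 3.64% of upstream genes (2 of 55) and 1.305% of the other entries, and over 500 and up to 1000 bp in 1.47% (1 of 68) and 4.11%. In each longer class they were rarer in upstream genes. The shares were 3.49% against 14.5% over 1000 and up to 2000 bp. They were 19.6% against 51.8% over 2000 and up to 4000 bp, and 38.5% against 82.1% above 4000 bp.

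A coding sequence has a length that is a multiple of 3, and so has a gene entry that holds nothing else. This property was examined after the values had been seen. The length was a multiple of 3 in 245 of the 387 expressed upstream genes without an own peak (63.3%, ENSRNA entries left out) and in 33 of the 88 with one (37.5%). In the other expressed genes it was so in 53.6% (4745 of 8857) without a peak in the body and in 33.9% (3413 of 10079) with one. The length of an entry that holds introns or untranslated sequence can be a multiple of 3 as well. Upstream genes with such a length had their downstream summit at a median of 182 bp, and the rest at 293 bp. The former were also shorter, with a median annotated length of 1314 bp against 4252 bp, and the part of length in these values was not tested. Whether the annotated ends fall short of the transcripts was not tested.

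The polysome to mRNA ratio (polysome FPKM over mRNA FPKM, the translational efficiency) of the 477 expressed upstream genes had a median of 0.916 and quartiles of 0.558 and 1.75. Its median was 0.887 and 0.906 in the replicates, against 0.815 and 0.884 for the other 19394 expressed entries. The difference was thus present in both replicates but, in replicate 2, smaller than that between the replicates of the other entries. It differed by own peak. Upstream genes without one had a median of 0.978 and 0.949 in the replicates, and those with one 0.737 and 0.765, while the other expressed entries had 0.791 and 0.812 without and 0.836 and 0.952 with a peak in the body. On the log2 scale the polysome median of all tested entries was shifted by −0.23 against mRNA, and centring each library on its median moved the upstream ratio to 1.07 and that of the other entries to 0.989.

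The ratio also differed with gene length, a split made after the values had been seen. In upstream genes of up to 500 bp the median ratio was 2.32 and 2.004 in the replicates (55 genes), against 0.819 and 0.731 in 1456 other entries of that length. Over 500 and up to 1000 bp it was 1.58 and 1.56 (68 genes), against 1.40 and 1.31. Above 1000 bp the order was the opposite, with 0.850 and 0.777 over 1000 and up to 2000 bp against 0.982 and 0.994, and 0.615 and 0.652 above 4000 bp against 0.664 and 0.747. The short upstream genes were also more abundant, with a median mRNA FPKM of 19.8 up to 500 bp against 7.14 in the others, and the part of abundance in these values was not tested. The other entries also held a larger share of non-coding ENSRNA entries. Of the expressed entries without an own peak, 387 of 389 upstream and 8857 of 9315 others were not ENSRNA entries. Among entries tested in the comparison of polysome with mRNA below, the others up to 1000 bp numbered 2948. They numbered 2619 once ENSRNA entries were left out and the rest rescaled. The upstream genes of this length numbered 123 and 122, respectively. The share of ENSRNA entries in each length class above was not computed, and their part in these values was not tested.

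**Figure D4:**
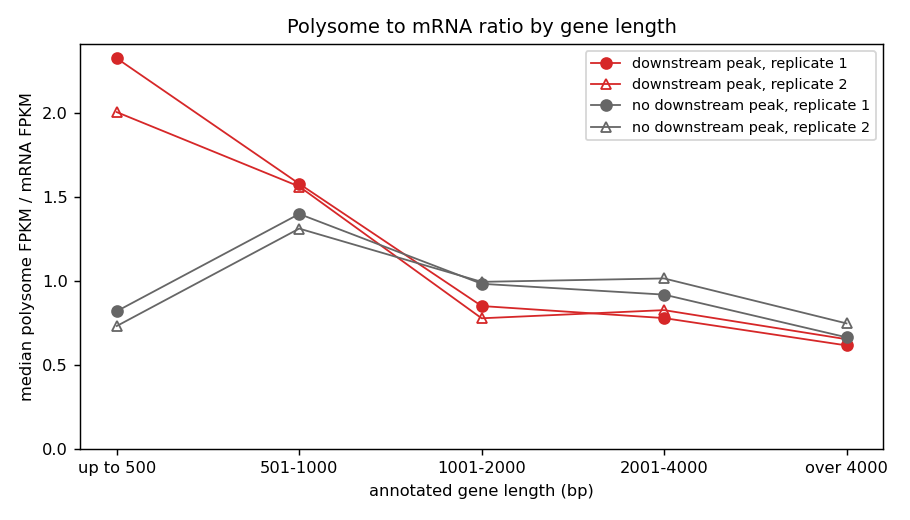
Polysome to mRNA ratio by gene length. Median of polysome FPKM over mRNA FPKM (y) by annotated gene length in bp (x), in replicate 1 (filled circles) and replicate 2 (open triangles). Red marks expressed entries with a downstream peak and grey those without one, ENSRNA entries included. Up to 500 bp the red points are at 2.32 and 2.004 and the grey points at 0.819 and 0.731, and above 1000 bp all red points lie below the grey points of the same replicate.

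Polysome and mRNA FPKM were compared gene by gene with limma on log2(FPKM + 0.1), over the 19518 entries whose 4 libraries averaged 1 FPKM or more, and a gene was called at an adjusted P of at most 0.01 (Benjamini–Hochberg) and a fold change of at least 1.5. Of the 628 upstream entries 467 were tested and 218 called. Polysome FPKM was higher in 120 (25.7%, against 21.1% of all entries tested) and lower in 98 (21.0%, against 22.2%). Over both directions 43.4% of all entries were called, so the upstream genes as a whole stood near the background. Their median log2 fold change was −0.09, and that of all entries −0.14. The number called among upstream genes was 130 without mRNA replicate 1, 117 without mRNA replicate 2, and 121 without polysome replicate 1. The split depends on the scaling: it was 149 higher and 73 lower with each library centred on its median (26.8% and 17.2% of all entries), and 48 higher and 220 lower when ENSRNA entries were left out and the rest rescaled (9.33% and 45.1%).

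The calls differed with length, at a limit of 1000 bp that was also set after the values had been seen. Among upstream genes of up to 1000 bp, 74 of 123 were higher in polysome RNA (60.2%) and 6 lower (4.88%), whereas 30.9% of the 2948 other entries of this length were higher and 21.3% lower. Among the 344 longer upstream genes 46 were higher (13.4%) and 92 lower (26.7%), against 19.2% and 22.4% of 16103 others. The share called higher among short upstream genes exceeded that of other short entries under the 2 other scalings too, at 69.1% against 37.3% with centring and 27.0% against 15.0% without ENSRNA entries. By abundance, 85 of 170 upstream genes at 10 FPKM or more in mRNA were higher, against 33.4% of 6065 others, and 24 were lower (14.1%, against 26.6%). From 1 to 10 FPKM the order was the opposite, with 34 of 294 upstream genes higher (11.6%, against 14.6% of 12503 others) and 74 lower (25.2%, against 21.0%). The shares were not tested against each other.

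A group of 4 upstream genes showed the largest increases in polysome over mRNA FPKM among those that reached a mean of 10 FPKM in mRNA. Zm00001d049665, 447 bp long on chromosome 4 from 39245896 to 39246342, measured 22.3 and 23.7 FPKM in mRNA but 116 and 93.6 FPKM in polysome RNA. On the log2 scale limma gave a fold change of 2.18 (SE 0.15, adjusted P=0.000172), and its peak, from 39246451 to 39246544, had its summit 154 bp past the gene with a fold of 5.38 and 5.66. Zm00001d035095, on chromosome 6 from 4940987 to 4941433, has the same length, with 32.005 and 38.2 FPKM in mRNA and 173 and 139 FPKM in polysome RNA. Both genes had every polysome value above every mRNA value. The log2 fold change of Zm00001d035095 was 2.14 (limma, SE 0.16, adjusted P=0.000221), and its peak lay 182 bp out, with a fold of 2.60 and 4.49. Zm00001d024518, on chromosome 10 from 75760691 to 75762808, had 108 and 107 FPKM in mRNA and 522 and 428 in polysome RNA, with a peak of fold 3.37 and 3.92 at 229 bp. Zm00001d020930, 348 bp long on chromosome 7 from 136911485 to 136911832, had 45.4 and 46.4 FPKM in mRNA and 210 and 166 in polysome RNA, with a peak of fold 3.26 and 2.92 at 86 bp. None of the 4 genes had a peak of its own, 3 of them were shorter than 500 bp, and their ratio of mean FPKM lay between 4.10 and 4.56.

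The 4 largest decreases came with longer genes in all but 1 case. Zm00001d037401, 51275 bp long on chromosome 6 from 124532947 to 124584221, was at 11.0 and 10.6 FPKM in mRNA and at 1.45 and 1.54 FPKM in polysome RNA, with a log2 fold change of −2.78 (limma, SE 0.16, adjusted P=0.000140). Its downstream peak, 307 bp wide and 314 bp out, had a fold of 9.06 and 5.37. Zm00001d011253, on chromosome 8 from 144623902 to 144628703, fell from 12.2 and 10.1 FPKM to 1.82 and 1.73 FPKM, with a peak of fold 5.19 and 5.11 at 313 bp. In both genes the polysome values stood well apart from the mRNA values. Zm00001d020954, only 864 bp long on chromosome 7 from 137626105 to 137626968, fell from 25.98 and 26.6 FPKM to 7.58 and 5.08 FPKM, and its peak at 157 bp had a fold of 5.77 and 5.15. Zm00001d037346, 49524 bp long on chromosome 6 from 122234832 to 122284355, fell from 38.6 and 32.6 FPKM to 11.1 and 9.87 FPKM, with a peak of fold 6.02 and 5.97 at 181 bp. The 2 genes of about 50 kb had an own peak as well, and the others had none. All 8 calls were kept when any 1 library was left out and under each scaling.

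**Figure D5:**
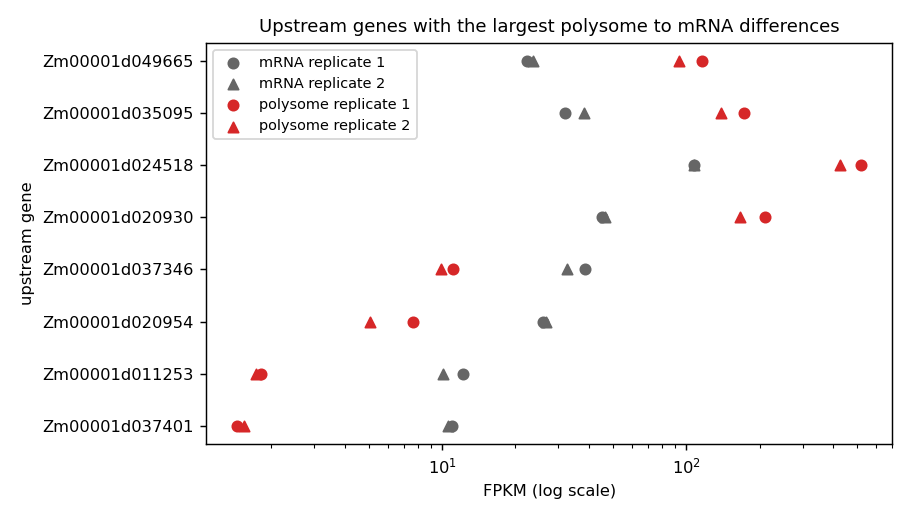
FPKM of the upstream genes with the largest differences between polysome and mRNA. Each row is 1 gene and each point 1 library, with FPKM on a log axis (x), mRNA in grey, polysome in red, replicate 1 as circles, and replicate 2 as triangles. The 4 upper genes have polysome values from 93.6 to 522 FPKM, all above their mRNA values, and the 4 lower genes have polysome values from 1.45 to 11.1 FPKM, all below them.

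The most abundant upstream entries had weak downstream peaks. Zm00001d018069, 747 bp long on chromosome 5 from 213760677 to 213761423, was at 453 and 410 FPKM in mRNA and at 1471 and 1269 in polysome RNA, and its peak, 762 bp out, had a fold of 1.86 and 1.91. Zm00001d043972, on chromosome 3 from 215395529 to 215396080, had 278 and 258 FPKM in mRNA and 952 and 953 in polysome RNA, with a fold of 2.47 and 2.53 at 210 bp. Zm00001d029049, on chromosome 1 from 56106212 to 56106724, had 263 and 232 FPKM in mRNA and 1118 and 826 in polysome RNA, with a fold of 1.95 and 1.78 at 165 bp. These 3 short genes without an own peak were called higher in polysome RNA, with log2 fold changes of 1.66, 1.83, and 1.96 (adjusted P from 0.000132 to 0.000329, limma), under each scaling. The non-coding entry ENSRNA049478292, 156 bp long of chromosome 6 (13586174 to 13586329), ranked first in abundance at 499 and 388 FPKM in mRNA and 437 and 417 in polysome RNA, values that overlap. Its peak, 535 bp out, had a fold of 3.75 and 3.85 and was 314 bp wide in replicate 1 and 55 bp in replicate 2, and reads of such a short entry could be shared with similar copies.

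The strongest downstream peaks of genes at 10 FPKM or more in mRNA mostly lay far from the gene end. The highest mean fold was that of Zm00001d020593, on chromosome 7 from 123984904 to 123993063, at 12.7 and 14.7, for a peak from 123983923 to 123983995, 940 bp past the gene. It was followed by Zm00001d006019 on chromosome 2 (11.5 and 12.5, 656 bp), Zm00001d040286 on chromosome 3 (10.8 and 13.1, 293 bp), and Zm00001d016322 on chromosome 5 (11.1 and 12.8, 388 bp). The peak of Zm00001d016322 was also the widest of these genes in replicate 1, at 317 bp, and was 375 bp wide in replicate 2. Next were Zm00001d034904 on chromosome 1 (12.1 and 11.2, 949 bp) and Zm00001d043113 on chromosome 3 (11.6 and 11.5, 804 bp). All but Zm00001d043113 had an own peak too. Of these 6, Zm00001d040286 (49.5 and 50.7 FPKM in polysome RNA, 19.995 and 22.7 in mRNA) and Zm00001d034904 were called higher in polysome RNA and Zm00001d016322 lower, at 4.89 and 4.69 FPKM in polysome RNA and 11.2 and 11.9 in mRNA. The call of Zm00001d034904, whose mRNA replicates were at 13.6 and 23.6 FPKM, was kept in only 2 of the 4 fits that leave out a library. It was lost when ENSRNA entries were left out, and so was that of Zm00001d040286. Over all 636 peaks the highest mean folds were those at Zm00001d031445 (20.4 and 26.9, 369 bp), Zm00001d043917 (21.3 and 25.6, 60 bp), and Zm00001d014472 (21.9 and 24.8, 811 bp), whose upstream genes were at no more than 2.25 FPKM in either mRNA library. These 3 were named after their values had been seen.

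The nearest and farthest peaks of such genes overlapped in strength. Nearest were Zm00001d049048 on chromosome 4 (summit 32 bp out, fold 2.01 and 2.18), Zm00001d041550 on chromosome 3 (48 bp, 3.19 and 2.82), and Zm00001d033479 on chromosome 1 (49 bp, 4.65 and 6.29), all without an own peak. Farthest were Zm00001d013648 (989 bp, 2.99 and 3.91), and Zm00001d034904 and Zm00001d020593, described above. Zm00001d013648, on chromosome 5 from 16157006 to 16159967, had polysome replicates as far apart as 1.51 and 23.0 FPKM, against 12.9 and 12.3 FPKM in mRNA, so its ratio cannot be read from the mean of 0.971. A gene had 2 downstream peaks in 8 cases, and none had more. Zm00001d029822, on chromosome 1 from 88696531 to 88703297, had summits at 433 and 688 bp with folds of 5.45 and 5.31 at the nearer and 5.02 and 5.35 at the farther. Zm00001d009189 on chromosome 8 had summits at 575 and 745 bp, and the farther peak was the higher in both replicates, at 7.11 and 15.8 against 4.02 and 8.12. In Zm00001d013320 on chromosome 5, the summits at 384 and 589 bp in replicate 1 fell in 1 peak of 383 bp in replicate 2, so they are not separate peaks there.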

How the data were processed

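The authors trimmed reads with Trimmomatic 0.35, mapped them to B73 AGPv4.38 with HISAT2 2.1.0, and deposited StringTie FPKM per entry for the mRNA and polysome libraries. The authors called peaks with MACS2 at q<0.01 in each replicate against its input, and deposited for each peak a fold enrichment (ratio), its P and q value as −log10, and a score that is 10 times the −log10 q value. The files hold no counts. Low FPKM of entries up to 200 bp, times length, fell within 0.05 of whole multiples of the lowest value for 8.11 to 24.7%, so the depth is unknown and precision is given by the spread of 2 replicates, which the paper calls biological. Replicates held different values, and adjusted P-values measure only the spread between them.

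Summits are column 2 plus column 10 of the deposited peaks. Printed positions count from 1. Expressed means a mean mRNA FPKM of at least 1. Own peaks are shared peaks overlapping the gene body. The tests of the methods need counts, so limma 3.58.1 in R 4.3.3 (lmFit, eBayes with trend) was fitted over all entries that passed the filter. Python 3.11.15, numpy 2.4.6, pandas 2.3.3, and matplotlib 3.10.9 were used. Named genes were, of those averaging 10 FPKM or more in mRNA, the 6 highest in fold, the 4 most abundant, the 4 largest increases and decreases, the 3 nearest, farthest, and widest, and those with 2 downstream peaks. The 2 peaks on each side of the 1000 bp limit were named at any FPKM, as were the 3 highest folds of all, chosen after their values were seen. None of the 10 genes with qPCR primers was upstream of a peak. The peaks, lists, and thresholds were chosen with earlier results of these data known. Motifs, sequences, and pathway genes were not analysed here, as no genome or matching names were used.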

Additional observations from a re-analysis of the deposited data

How the results depend on the processing

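Of 89 values recomputed under alternatives, 61 stayed within the spread of the replicates or within 1.5 times the count, and 28 moved. The balance of calls turned with the scaling: 4124 higher and 4340 lower over all genes became 5239 and 3350 with centred libraries and 1817 and 8786 with ENSRNA entries left out, and 120 and 98 among upstream genes became 149 and 73, and 48 and 220. Their median log2 fold change went from −0.09 to 0.14 and −0.77, respectively. No called upstream gene was called in the opposite direction by any alternative fit, and 96 of the 218 were kept in all 4 fits that leave out a library (67 higher, 29 lower). The ratio of downstream to upstream windows was 5.59 with 50% overlap between replicates, 5.42 at q of at most 1e-05, 5.50 with replicate 2 peaks counted, 11.0 within 500 bp, and 3.01 within 2000 bp. The median fold at the stricter q was 7.82. The median distance was 228.5 bp with replicate 2 peaks, 182 bp within 500 bp, 386 bp within 2000 bp, and 238 bp for peaks near a single gene end. The polysome to mRNA ratio in these 4 cases was 0.895, 0.953, 0.867, and 0.932, and it was 0.888 from 0.5 FPKM, 1.17 from 5 FPKM, 0.848 with no filter, and 1.07 with centred libraries. Without one replicate, the median fold ranged from 6.74 to 7.38, the ratio from 0.887 to 0.906, and the share of genes with an own peak from 18.7 to 30.6%. Without one library, 4736 to 5568 of all genes and 117 to 149 upstream genes were called, against 8464 and 218. The mRNA and polysome libraries of the same number showed no shared deviation (correlation of the deviations of mRNA and polysome replicates 0.016). This does not settle whether they came from the same plants. With the replicate block 7886 genes were called, of which 199 were upstream genes (113 higher, 86 lower). With 2 replicates and unknown depth, differences between classes of peaks have no test, and the absence of a peak cannot be told apart from a peak that was not detected.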

Other observations

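Peaks of a single replicate also met the positional rule. Of the 13250 replicate 2 peaks that overlapped no replicate 1 peak, 482 lay outside entries with a summit within 1000 bp downstream of a 3′ end, with a median fold of 5.69 in that replicate. Of the 349 replicate 1 peaks without a partner, 21 did.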
